A study of Mus with 4 samples.

Results

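The 28 genes described here encode enzymes and controls of cholesterol and fatty acid synthesis, and were taken by symbol from the 31253 genes of the count matrices of dorsal root ganglion (DRG) cells. All 28 symbols were found once in every library, and all 28 passed the filter on low counts in each comparison below. The cells came from L4 and L5 DRGs of wildtype mice (male C57BL/6J, according to the methods of the study), and were counted by 10x Genomics droplets with unique molecular identifiers (UMIs), which count each captured molecule once. The 2 CON libraries came from naive mice, and the 2 CCI libraries from mice on day 3 after chronic constriction injury of the sciatic nerve, a model of neuropathic pain in which only part of the neurons of these ganglia have an injured axon. The mice were 8 weeks old at dissociation. CON mice are labelled as naive, so that the nerve injury and the surgery cannot be told apart. No source used here gives the number of mice per library, and p-values therefore measure the spread between libraries, which may be technical.

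Cholesterol and fatty acids are both built from cytosolic acetyl-CoA. In the mevalonate pathway acetyl-CoA is turned into isoprenoid units, which are joined to squalene, closed to lanosterol and trimmed in several late steps to cholesterol, while fatty acids are made as palmitate and then elongated and desaturated. Most of these genes carry sites for the SREBP transcription factors, which are held in the endoplasmic reticulum by INSIG proteins while sterols are plentiful. Satellite glia wrap the cell bodies of sensory neurons, Schwann cells make the lipid-rich myelin of their axons, and neurons both make and take up sterols.

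Although the labels name the samples as neurons, the libraries held 7 marker-defined cell types, of which 3 are compared here. Clusters were called satellite glia-like, Schwann-like and neuron-like from their markers, and these are written below as satellite glia, Schwann cells and neurons. Wherever 4 values follow each other below, they stand for the first and second CON library and then the first and second CCI library. The 35113 kept cells included 2695, 1102, 2441 and 3364 satellite glia. Schwann cells numbered 1061, 194, 1507 and 640, and neurons 1112, 311, 1521 and 980. UMIs were summed per library and cell type, and levels are given as CPM, the UMIs of a gene divided by that sum and scaled to a common total. Each molecule is counted once, from its end, so that gene length does not enter these levels. The sums ran from 975202 UMIs, in Schwann cells of CON replicate 2, to 85368930 UMIs, in neurons of CCI replicate 1. Behind the levels stood at least 292 UMIs per member and library in neurons and at least 474 in satellite glia, but only 8 for Tm7sf2 in Schwann cells of CON replicate 2. CON replicate 2 held the fewest and deepest cells, with a median of 8352 UMIs against 2508 to 4552 in the other libraries. A total of 103 barcode sequences occurred in more than 1 library.

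The glia carried neuronal RNA, and the amount differed between libraries. The summed level of 10 neuron markers in satellite glia was 7310, 583, 6838 and 3124 CPM, or 35.9%, 2.92%, 29.7% and 13.0% of the level in the neurons of the same library. In Schwann cells it was 65.1%, 5.77%, 50.9% and 32.0%. Nefm, a neurofilament gene, reached 1037 CPM in satellite glia of CON replicate 1 against 904 CPM in the neurons of that library. No neuron marker was at 0 in the glia. The glia of CON replicate 2 thus held the least neuron marker RNA, and levels are given for every library below. Its Schwann cells held the most satellite glia marker RNA, however, with a sum over 8 markers of 2391, 5160, 1564 and 2558 CPM. Satellite glia held 2243, 2539, 3237 and 3280 CPM of the 9 Schwann cell markers, none of which was at 0. Neurons held 917 to 1404 CPM of the 8 satellite glia markers, against 95772 to 113855 CPM in satellite glia themselves.

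**Figure D1:**
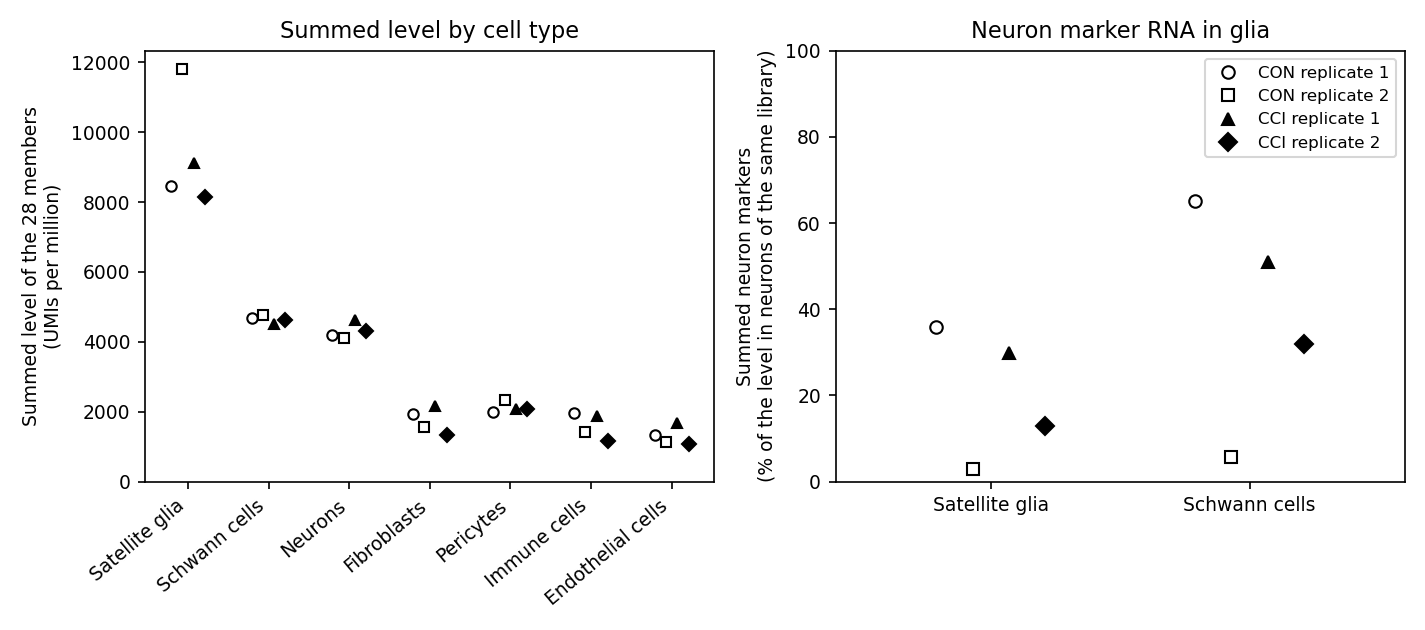
The summed level of the 28 members (CPM) in 7 cell types (left), and the summed level of 10 neuron markers in glia as a percentage of the level in neurons of the same library (right), with 1 symbol per library, open for CON and filled for CCI. Satellite glia lie above the other types in all 4 libraries, and the glia of CON replicate 2 hold the least neuron marker RNA.

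Satellite glia held the highest summed level of the 28 members. Their sum was 8466, 11793, 9122 and 8155 CPM. In Schwann cells the sum was 4687, 4756, 4516 and 4627 CPM, and in neurons 4186, 4103, 4609 and 4311 CPM. Every satellite glia library lay above every library of the other types. The sums of fibroblasts, pericytes, immune cells and endothelial cells had means between 1304 and 2128 CPM. Among these 7 types, 18 of the 28 members were highest in satellite glia in all 4 libraries, and Acat2 and Acly were highest in neurons in all 4. The other 8 members changed their highest type between libraries.

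Gene by gene, satellite glia again lay above both other types in most members. With the library as a block, 22 of 28 members were higher in satellite glia than in neurons and 1, Acly, was lower (edgeR quasi-likelihood test, Benjamini-Hochberg adjusted p under 0.05). Over all genes tested 75.2% were called, 37.5% higher and 37.7% lower. The median log2 fold change of the members was 1.08, and that of all genes -0.01. Against Schwann cells, satellite glia were higher in 24 members and lower in none, where 29.3% of all genes were called, 17.8% lower in Schwann cells and 11.5% higher. The median log2 fold change of Schwann cells over satellite glia was -1.03 for the members and 0.03 for all genes. Between Schwann cells and neurons the members were split, with 8 higher and 12 lower in Schwann cells (30.0% and 34.0% of all genes, 64.1% in all). The median log2 fold change of Schwann cells over neurons was -0.17 for the members and -0.09 for all genes. Without the cells richest in markers of other types, 23, 24 and 20 members were called in the 3 comparisons in the order given. Within the 2 CON libraries alone, the calls of Schwann cells fell to 7 against satellite glia and 3 against neurons. The share of all genes called is not given for these alternative settings.

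Satellite glia stood furthest from both other types in CON replicate 2, whose glia held the least neuron marker RNA. Among the other libraries the gap to neurons did not follow that RNA. Satellite glia held most of it in CON replicate 1 (35.9%) and least in CCI replicate 2 (13.0%). In CON replicate 2 the median ratio of satellite glia to neurons over the members was 2.82, against 2.12 in CON replicate 1 and 1.76 and 1.67 in the CCI libraries. The ratio of Schwann cells to satellite glia had a median of 0.400 in CON replicate 2 and of 0.543, 0.517 and 0.616 in the others. Between Schwann cells and neurons the gap was smallest in CON replicate 2. The median ratio was 1.02 there and 0.845, 0.746 and 0.831 in the others. The part of the neuronal and satellite glia RNA in these gaps was not tested.

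**Figure D2:**
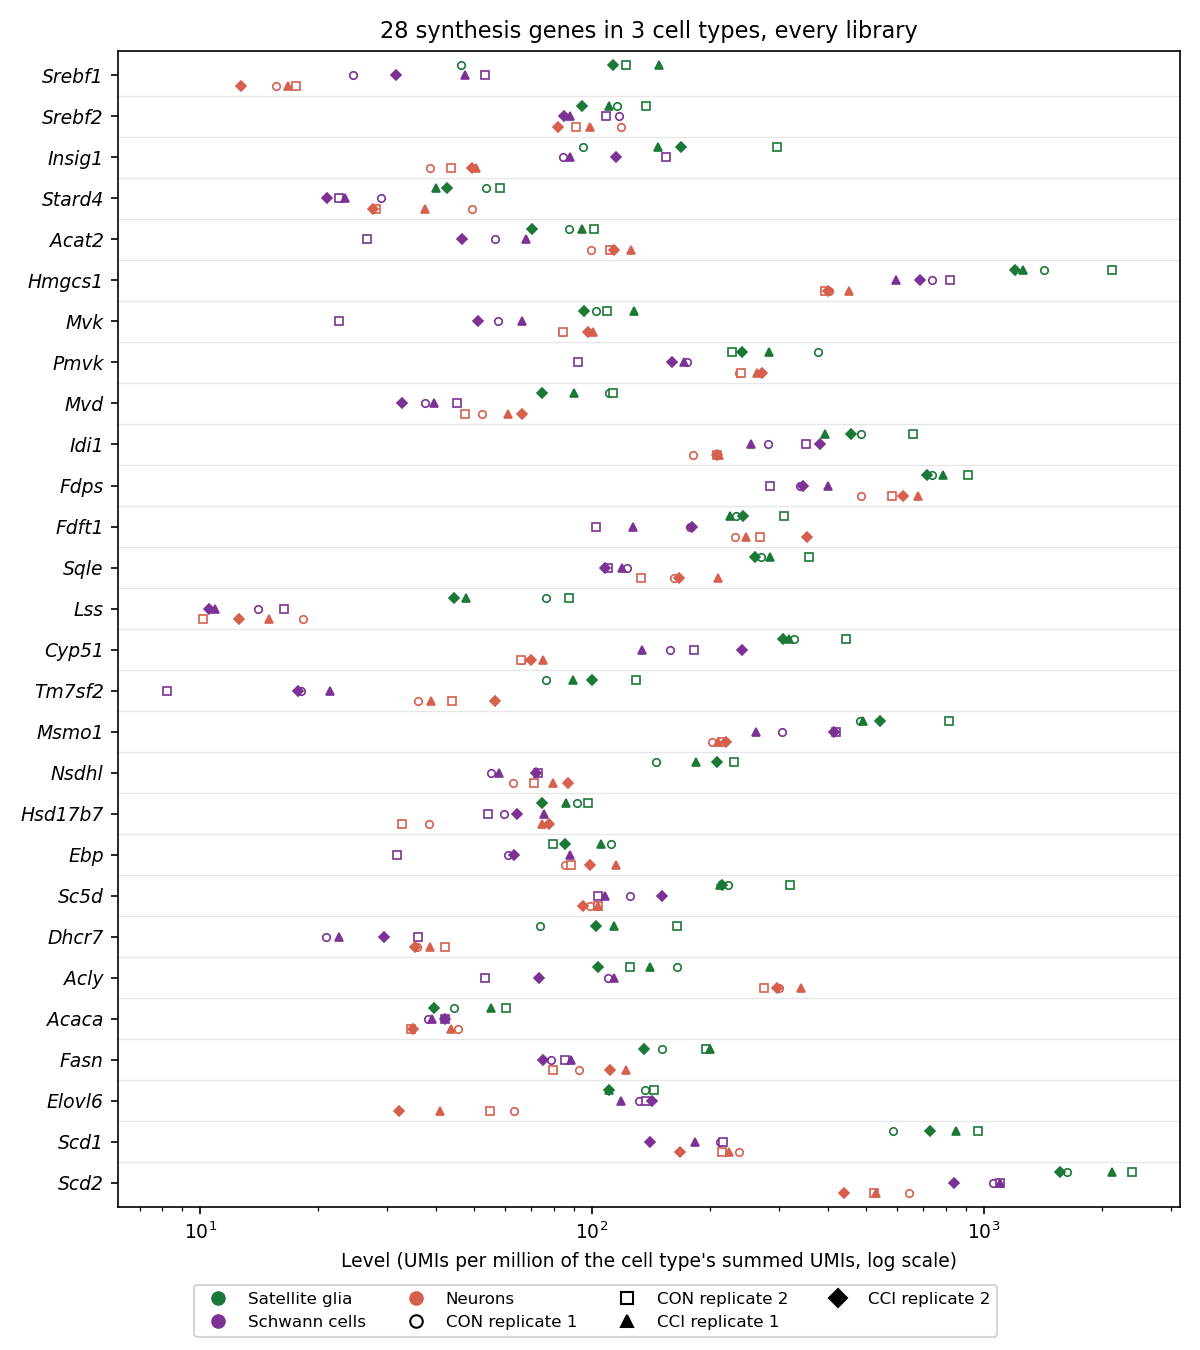
Level of each member (CPM, log scale) in satellite glia (green), Schwann cells (purple) and neurons (red), 1 symbol per library, open for CON and filled for CCI. Cyp51, Scd1 and Lss stand well apart in satellite glia, whereas Acly lies highest in neurons and Elovl6 lies alike in both glial types.

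The 3 genes of SREBP control differed in how strongly they separated the cell types. Srebf1, which encodes SREBP-1, was at 46.3, 123, 148 and 113 CPM in satellite glia. It was at 24.5, 53.3, 47.5 and 31.6 CPM in Schwann cells, and at 15.6, 17.5, 16.8 and 12.7 CPM in neurons. Its lowest satellite glia library, CON replicate 1, overlapped the Schwann cells, and every glial library lay above every neuron library. The log2 fold change of satellite glia over neurons was 2.77 (SE 0.25, edgeR adjusted p = 7.2e-06). Srebf2, which encodes SREBP-2, the main driver of the cholesterol genes, was at 116, 137, 110 and 94.2 CPM in satellite glia. It was at 117, 109, 88.2 and 84.9 CPM in Schwann cells and at 119, 90.9, 98.8 and 81.8 CPM in neurons. These ranges overlapped, and the difference of satellite glia from neurons was small (log2 fold change 0.32, SE 0.11, edgeR adjusted p = 0.026). Insig1, whose product holds the SREBPs back, was at 95.0, 296, 148 and 169 CPM in satellite glia, 84.5, 155, 87.8 and 115 CPM in Schwann cells and 38.6, 43.7, 50.5 and 49.4 CPM in neurons. Both glial types were above neurons in every library, by 1.92 (SE 0.21) and 1.25 (SE 0.21) on the log2 scale (edgeR adjusted p = 2.0e-05 and 0.00057). Stard4, which carries sterols between membranes, was at 53.6, 58.1, 39.9 and 42.8 CPM in satellite glia and 49.3, 28.1, 37.4 and 27.5 CPM in neurons. These ranges overlapped, but satellite glia passed the test as higher than neurons (log2 fold change 0.56, edgeR adjusted p = 0.0075). Schwann cells, with a mean of 24.0 CPM, were lower than neurons (-0.51, edgeR adjusted p = 0.023) and than satellite glia (-1.08, edgeR adjusted p = 0.0011).

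The mevalonate steps were read from 7 genes, Acat2, Hmgcs1, Mvk, Pmvk, Mvd, Idi1 and Fdps. Of these, 4 were higher in satellite glia than in neurons, against 37.5% of all genes. All 7 were lower in Schwann cells than in satellite glia, against 17.8% of all genes. Hmgcs1, which makes HMG-CoA, was at 1424, 2132, 1257 and 1204 CPM in satellite glia, at 737, 820, 596 and 687 CPM in Schwann cells and at 402, 393, 453 and 402 CPM in neurons. The 3 types did not overlap. Satellite glia exceeded neurons by 1.91 on the log2 scale (SE 0.15, edgeR adjusted p = 3.1e-06). Fdps, which makes the farnesyl diphosphate used for sterols and for protein prenylation, was at 739, 914, 788 and 715 CPM in satellite glia, 340, 285, 401 and 345 CPM in Schwann cells and 487, 582, 680 and 622 CPM in neurons. It was thus lowest in Schwann cells and highest in satellite glia, and it was the member with the highest mean level in neurons. Idi1, which interconverts the isoprenoid units, had mean levels of 500 CPM in satellite glia, 318 CPM in Schwann cells and 202 CPM in neurons. Acat2, Mvk and Pmvk did not pass the test between satellite glia and neurons, with log2 fold changes of -0.26 (95% interval -0.69 to 0.16), 0.34 (-0.09 to 0.76) and 0.21 (-0.15 to 0.58).

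Fdft1 and Sqle catalyse successive steps, yet they differed in their pattern. Fdft1, squalene synthase, was at 233, 309, 225 and 244 CPM in satellite glia and at 231, 269, 247 and 354 CPM in neurons. The difference was not larger than the spread (log2 fold change -0.02, 95% interval -0.41 to 0.37, edgeR adjusted p = 0.93). Schwann cells were lower, at 178, 103, 127 and 180 CPM. Sqle, squalene epoxidase, was at 270, 359, 285 and 261 CPM in satellite glia, 123, 110, 120 and 108 CPM in Schwann cells and 162, 133, 210 and 167 CPM in neurons, with no overlap between satellite glia and either other type. Lss, which closes the ring to lanosterol, had a mean of 64.0 CPM in satellite glia against 13.0 CPM in Schwann cells and 14.0 CPM in neurons.

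The late sterol steps were nearly all higher in satellite glia than in the other types. Of the 8 genes, 7 were higher in satellite glia than in neurons, against 37.5% of all genes. In Schwann cells 7 were lower than in satellite glia, against 17.8% of all genes. Cyp51, the lanosterol demethylase, was at 328, 445, 318 and 308 CPM in satellite glia, 158, 183, 134 and 241 CPM in Schwann cells and 66.4, 65.8, 75.0 and 70.0 CPM in neurons. The 3 types did not overlap, and satellite glia exceeded neurons by 2.41 on the log2 scale (SE 0.17, edgeR adjusted p = 1.4e-06). Msmo1, which oxidises methyl groups of the sterol, was at 482, 818, 491 and 544 CPM in satellite glia, 306, 419, 262 and 414 CPM in Schwann cells and 202, 214, 210 and 220 CPM in neurons, with no overlap between the types. Dhcr7, which carries out a last reduction to cholesterol, had means of 114, 27.2 and 37.9 CPM, and Tm7sf2, a sterol reductase, 98.8, 16.4 and 43.7 CPM. For both genes Schwann cells were below neurons (edgeR adjusted p = 0.020 and 0.0012). Ebp, a sterol isomerase, showed no difference of satellite glia from neurons beyond the spread (log2 fold change 0.06, 95% interval -0.32 to 0.45).

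In the fatty acid branch the supply of acetyl-CoA and its use were distributed differently. Acly, which frees acetyl-CoA from citrate, was at 301, 274, 342 and 298 CPM in neurons, 165, 125, 140 and 104 CPM in satellite glia and 110, 53.3, 114 and 73.3 CPM in Schwann cells. Neurons lay above both glial types in every library, and satellite glia were lower by a log2 fold change of -1.11 (SE 0.16, edgeR adjusted p = 0.00012). In glia the 2 lowest Acly levels were those of CON replicate 2 and CCI replicate 2, which held less neuron marker RNA. In satellite glia the lowest was CCI replicate 2, while CON replicate 2 held the least neuron marker RNA. The part of neuronal RNA in these levels was not tested. Acaca, which makes malonyl-CoA, was close in all types, at 44.5, 60.5, 55.2 and 39.5 CPM in satellite glia, 38.2, 42.0, 39.1 and 42.2 CPM in Schwann cells and 45.5, 34.5, 43.8 and 34.8 CPM in neurons. These ranges overlapped, and satellite glia exceeded neurons by 0.41 on the log2 scale (SE 0.14, edgeR adjusted p = 0.023). Fasn, fatty acid synthase, was at 151, 195, 201 and 136 CPM in satellite glia, above every library of Schwann cells (78.8, 85.1, 88.4 and 75.0 CPM) and of neurons (92.7, 79.6, 122 and 111 CPM).

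Elovl6, which elongates palmitate to stearate, set both glial types apart from neurons. It was at 137, 144, 111 and 111 CPM in satellite glia and at 132, 137, 118 and 142 CPM in Schwann cells, and at 63.1, 54.9, 40.8 and 32.1 CPM in neurons. The glial ranges overlapped (log2 fold change 0.04, 95% interval -0.32 to 0.39), and both lay above the neurons, by 1.51 (SE 0.16) and 1.54 (SE 0.16) on the log2 scale (edgeR adjusted p = 1.8e-05 and 3.3e-05). The desaturases Scd1 and Scd2, which turn stearate into oleate, differed from each other in Schwann cells. Scd2 was the most abundant member of both glial types, at 1632, 2384, 2128 and 1566 CPM in satellite glia, 1057, 1100, 1102 and 842 CPM in Schwann cells and 643, 524, 532 and 440 CPM in neurons. Scd1 was at 587, 968, 850 and 731 CPM in satellite glia, but at 212, 216, 183 and 141 CPM in Schwann cells and 238, 215, 224 and 168 CPM in neurons. Scd1 in Schwann cells overlapped the neurons (log2 fold change -0.14, 95% interval -0.49 to 0.21), whereas Scd2 was higher by 0.97 (SE 0.13, edgeR adjusted p = 0.00020).

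Whether injury changed this pathway was asked within each cell type. In satellite glia no member passed the test between CCI and CON (edgeR, 0 of 28), 1 had an unadjusted p under 0.05, and DESeq2 called 0 members. Of all 13242 genes tested 0.00755% were called by edgeR, a count of 1 gene, and DESeq2 called 34. The member with the unadjusted p under 0.05 was Lss, at 76.2 and 87.6 CPM in CON and 47.8 and 44.4 CPM in CCI (log2 fold change -0.75, SE 0.16, edgeR adjusted p = 0.999). The 2 groups did not overlap for Lss. In 10 members, among them Hmgcs1, Idi1, Cyp51 and Elovl6, both CCI libraries were below both CON libraries, and in 0 members both were above. Of all genes tested, 20.4% were below and 10.6% above in this way. The median log2 fold change was -0.13 for the members and 0.02 for all genes, and 22 of 28 members were below 0. The neuron marker RNA of the CON satellite glia spanned the range given above, and Cxcl10-rich clusters held 1676 of 3364 satellite glia in CCI replicate 2 against 644 of 2441 in CCI replicate 1.

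In Schwann cells 0 of 28 members passed the test (edgeR), 0 had an unadjusted p under 0.05 and DESeq2 called 0. Of all 10634 genes, 0.00% were called by edgeR, with 199 at an unadjusted p under 0.05, and DESeq2 called 8. Hmgcs1, Srebf2, Lss and Scd1 were lower in both CCI libraries than in both CON libraries, and Fdps, Hsd17b7 and Ebp were higher. These 4 and 3 members compare with 17.7% and 12.2% of all genes. The median log2 fold change was 0.05 for the members and -0.04 for all genes. The intervals were wide: that of Hmgcs1 ran from -0.88 to 0.39 and that of Scd2 from -0.78 to 0.55.

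In neurons Hsd17b7 was the member that passed the test, 1 of 28 (edgeR), and 5 had an unadjusted p under 0.05. Of all 15518 genes, 4.61% were called, 4.07% higher and 0.541% lower, with 2693 at an unadjusted p under 0.05. Hsd17b7 encodes a reductase of sterol ketones that acts with Nsdhl in the demethylation of sterols and can also reduce estrone to estradiol, and lies on chromosome 1 at 169949535 to 169969242 in GRCm38.p6. It was at 38.3 and 32.8 CPM in CON and at 74.6 and 77.8 CPM in CCI neurons. Both CCI libraries were above both CON libraries, by more than the spread within either group (log2 fold change 1.18, SE 0.18, edgeR adjusted p = 0.0071). Each library could be left out without ending this call, with adjusted p between 2.3e-05 and 0.015. With the CIP-like neurons described below left out, the log2 fold change was 0.83 and the adjusted p 0.071, so that no member was called.

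Further members moved by less. Fasn was at 92.7 and 79.6 CPM in CON and 122 and 111 CPM in CCI neurons (log2 fold change 0.51, SE 0.17, edgeR adjusted p = 0.16). Sqle was at 162 and 133 CPM in CON and 210 and 167 CPM in CCI (0.43, SE 0.18, edgeR adjusted p = 0.28). Elovl6, on chromosome 3 at 129532386 to 129638495 in GRCm38.p6, was at 63.1 and 54.9 CPM in CON and 40.8 and 32.1 CPM in CCI (-0.62, SE 0.18, edgeR adjusted p = 0.11, DESeq2 adjusted p = 0.049). None of these 3 genes overlapped between the groups. In all, 12 members were higher and 1 lower in both CCI libraries than in both CON libraries, where 19.4% and 29.0% of all genes were. The median log2 fold change was 0.22 for the members and -0.02 for all genes, with 21 of 28 members above 0. The genes without overlap on the higher side spread along the sterol branch, from Acat2, Mvk, Pmvk, Mvd and Fdps through Sqle and Cyp51 to Nsdhl, Hsd17b7 and Ebp, with Insig1 and Fasn beside them. Of these genes only Hsd17b7 passed the test (edgeR). Srebf2, the desaturases and Acaca had log2 fold changes between -0.19 and 0.05, with edgeR adjusted p of at least 0.67.

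**Figure D3:**
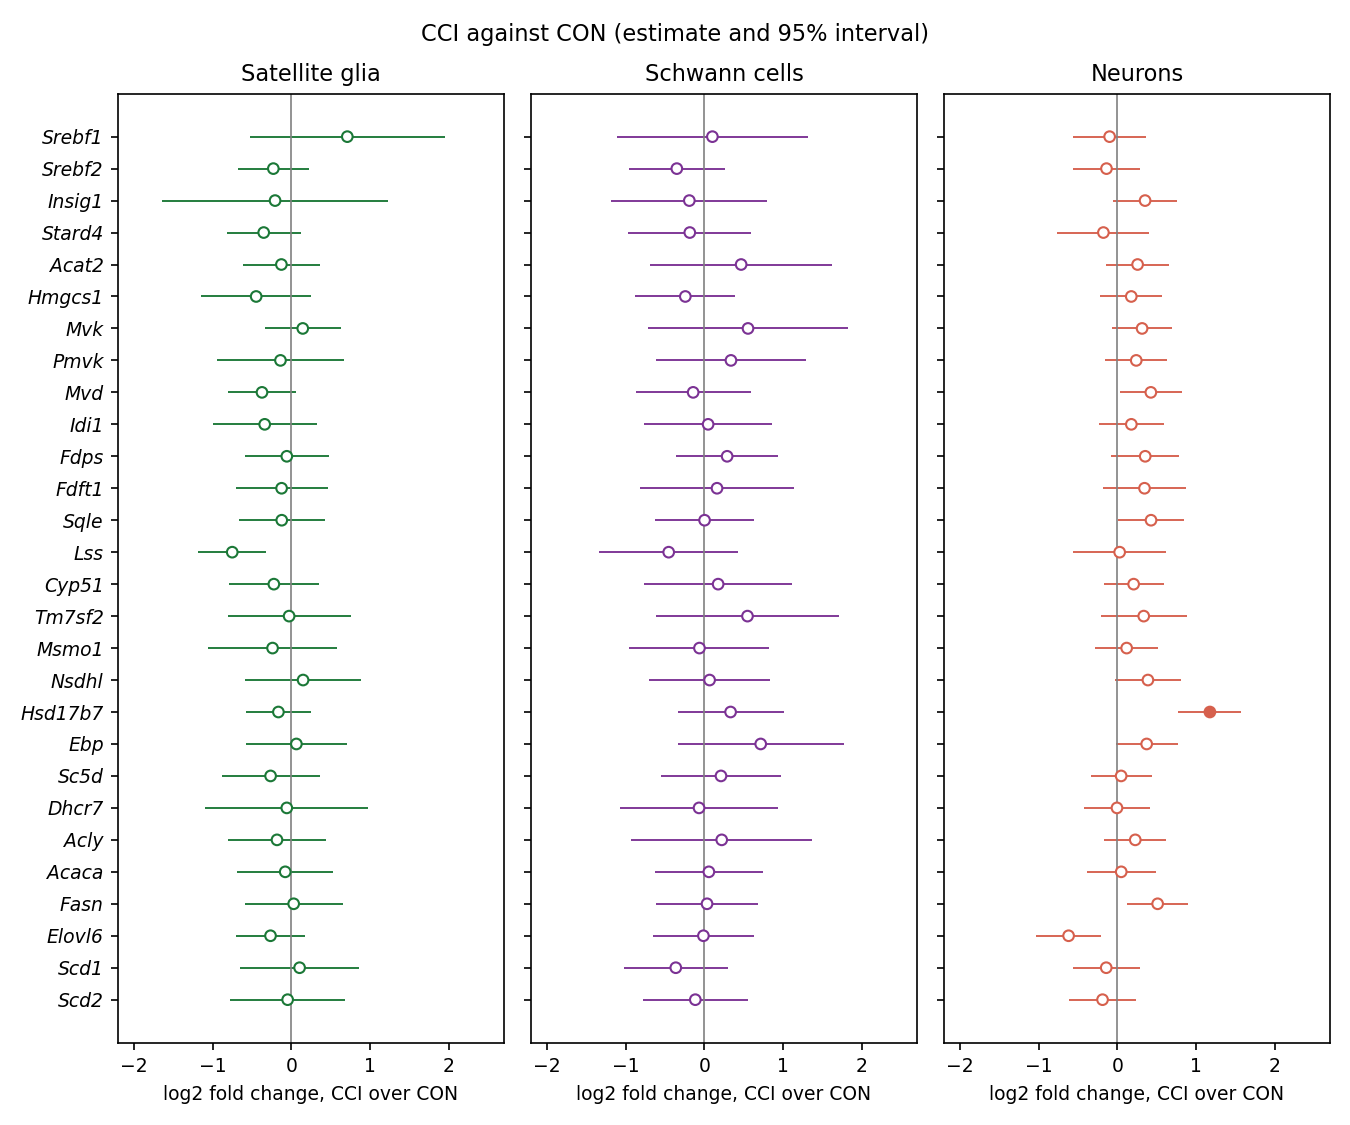
Log2 fold change of CCI over CON for the 28 members in satellite glia, Schwann cells and neurons, with 95% intervals from edgeR. A filled point marks an adjusted p under 0.05, which only Hsd17b7 in neurons reached, at 1.18, and most neuron estimates lie to the right of 0.

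Whether the effect of CCI differed between the cell types was tested as an interaction. No member passed the test between satellite glia and neurons, Schwann cells and neurons or Schwann cells and satellite glia (edgeR, 0 of 28 each), with 4, 2 and 0 members at an unadjusted p under 0.05. Of all 14833 genes 0.0405%, 0.0270% and 0.00% were called. DESeq2 called 1, 0 and 0 members. Hsd17b7 came closest: its CCI effect in satellite glia was lower than in neurons by a log2 difference of -1.34 (SE 0.25, edgeR adjusted p = 0.39). In satellite glia Hsd17b7 was at 91.6 and 98.0 CPM in CON and 86.0 and 74.6 CPM in CCI, and the CCI neurons lay at the lower end of that range. DESeq2 called this difference (adjusted p = 0.00026), and edgeR did so without CON replicate 1 (adjusted p = 0.043). Under edgeR, no member was thus shown to respond to CCI differently in the 3 types.

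Injured neurons were looked at within the CCI libraries. CIP-like neurons are clusters with high Atf3, Sprr1a, Camk1, Flrt3 and Gpr151, genes known to be induced by axon injury, and numbered 317 and 167 cells in CCI replicates 1 and 2 but 4 and 1 in CON. Against the other neurons of the same libraries, with the library as a block, 12 members were higher and 7 lower (edgeR). Since 58.0% of all genes were called, 28.2% higher and 29.9% lower, that share of members lies near the background. The split also depended on scaling. With library totals in place of TMM factors, the scaling that edgeR uses by default, the median of all genes moved by -0.20 on the log2 scale, and 7 members were higher and 12 lower. Without the library block 7 members were called, namely Hsd17b7, Fasn, Insig1, Acly and Hmgcs1 as higher and Elovl6 and Stard4 as lower. The share of all genes called without the block is not given here.

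Hsd17b7 and Elovl6 showed the widest separation of CIP-like from other neurons in the 2 directions. Hsd17b7 was at 105 and 126 CPM in CIP-like neurons and 62.3 and 61.6 CPM in the others (log2 fold change 1.10, SE 0.09, edgeR adjusted p = 3.6e-17). Elovl6 was at 14.8 and 13.4 CPM in CIP-like neurons and 51.2 and 38.4 CPM in the others (-1.46, SE 0.10, edgeR adjusted p = 1.1e-19). Fasn was at 136 and 166 CPM against 117 and 92.8 CPM (0.72, SE 0.09, edgeR adjusted p = 1.1e-09). Acaca, which acts before Fasn, was at 40.5 and 37.6 CPM against 45.1 and 33.9 CPM, with overlap. Insig1 was at 63.8 and 69.2 CPM against 45.2 and 42.8 CPM, and Hmgcs1 at 484 and 499 CPM against 441 and 369 CPM. Scd1 was at 156 and 139 CPM against 250 and 177 CPM (-0.31, SE 0.09, edgeR adjusted p = 0.0020). Except for Acaca, the CIP-like values of these genes did not overlap those of the other neurons. Apart from Acaca, the directions held with library totals in place of TMM factors. Sums of 2 libraries stood behind each test, so that these small p-values rest on a spread pooled over genes.

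**Figure D4:**
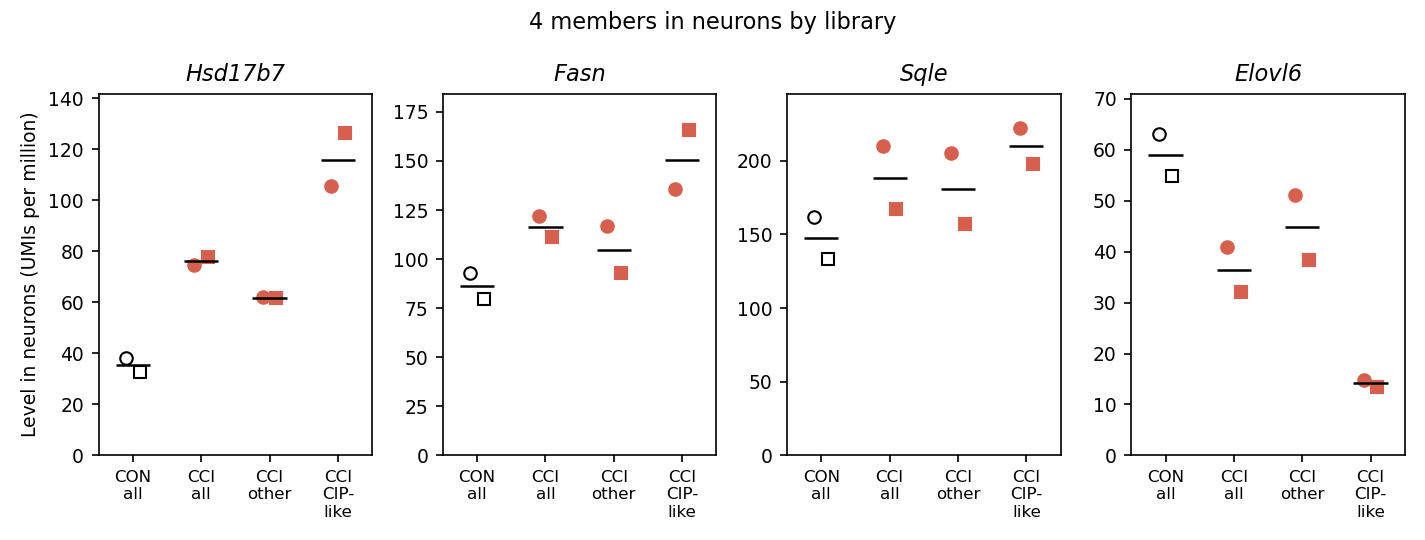
Levels of Hsd17b7, Fasn, Sqle and Elovl6 (CPM) in all neurons of CON and CCI and in the CIP-like and other neurons of CCI, with circles for replicate 1, squares for replicate 2 and bars for the mean of 2 libraries. Hsd17b7 is higher in CCI than in CON and highest in CIP-like neurons, where Elovl6 is lowest.

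Among the other neuron subtypes, Hsd17b7 was higher in CCI in some and not in others. The subtypes were called from markers, and these values are given without a test. In NF-like neurons, which carry Nefh and Pvalb and include large myelinated fibres, Hsd17b7 was at 45.0 and 43.5 CPM in CON and at 156 and 132 CPM in CCI, from 34 to 109 cells per library. In SST-like neurons, itch neurons with Sst and Nppb, it was at 19.1 and 15.8 CPM in CON and at 68.7 and 112 CPM in CCI, but CON replicate 2 held only 10 such cells. In NP1-like neurons (Mrgprd) it was at 30.6, 25.4, 34.2 and 29.4 CPM. In cLTMR1-like neurons (Th, Tafa4) it was at 35.3, 29.9, 31.8 and 29.0 CPM, and in NP2-like neurons at 26.2, 16.0, 27.5 and 16.7 CPM. These 3 subtypes overlapped between the groups. PEP1-like neurons (Tac1, Trpv1) were at 47.3, 36.4, 48.4 and 49.5 CPM, with little distance between the groups. Neurons in clusters left unnamed numbered 206, 22, 299 and 125 cells. Their Hsd17b7 was at 62.8, 87.8, 110 and 98.6 CPM, without overlap between the groups. They included a cluster with 3 CIP and 3 NF markers. A higher level in NF-like, SST-like and unnamed cells thus stood outside the clusters named CIP-like. Whether these cells were injured was not tested.

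Other members had subtype patterns of their own. Fdps was at 544 to 963 CPM in PEP1-like neurons and 613 to 993 CPM in NP1-like neurons, but at 138 to 306 CPM in NF-like neurons. Scd1 was at 366 to 473 CPM in NP1-like neurons, and at 73.1 to 213 CPM in all other subtypes, without overlap. Pmvk was highest in cLTMR1-like neurons, at 374 to 435 CPM, above all libraries of the other subtypes. Elovl6 was at 50.9 to 79.4 CPM in NP1-like neurons and at 16.9 to 22.3 CPM in SST-like neurons, and SST-like neurons came closest to the CIP-like level of 13.4 to 14.8 CPM.

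**Figure D5:**
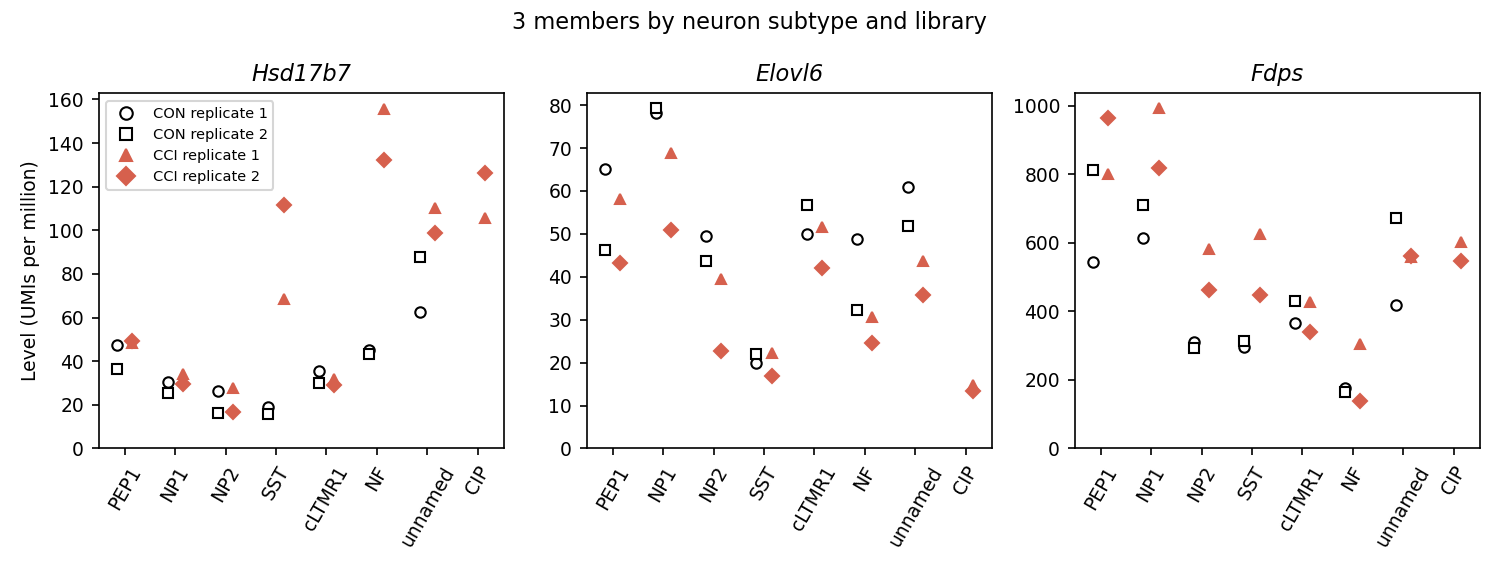
Levels of Hsd17b7, Elovl6 and Fdps (CPM) by marker-defined neuron subtype, with open symbols for CON and filled symbols for CCI libraries and CIP-like neurons for CCI only. Hsd17b7 is higher in CCI than in CON in the SST-like, NF-like and unnamed neurons, with little distance in the PEP1-like neurons. The NP1-like, NP2-like and cLTMR1-like neurons overlap, and Fdps is lowest in NF-like neurons in every library.

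Within satellite glia, clusters with Cxcl10 among their leading genes had lower levels of most members than the other clusters. These clusters, which were also led by Fos, Atf3 and Socs3 or by Fabp7, held 674, 323, 644 and 1676 cells. Of the 28 members, 23 were lower than in the other satellite glia in all 4 libraries and 0 were higher in all 4. Over all genes tested 16.3% were lower and 18.6% higher in all 4 libraries. Hmgcs1 was at 1100, 1606, 1022 and 962 CPM in the Cxcl10 clusters and at 1537, 2335, 1340 and 1419 CPM in the others. The exceptions were Srebf1, Insig1, Stard4, Idi1 and Hsd17b7. Cells of a cluster are not replicates and no test was made. Leaving the Cxcl10 clusters out left 0 members called between CCI and CON in satellite glia.

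The neighbouring parts of lipid metabolism were read from 5 further lists, given as counts. Genes of sterol uptake, transport and efflux were higher in satellite glia than in neurons in 13 of 14 cases and lower in 0 (edgeR), where 37.5% of all genes were higher and 37.7% lower. Apoe, the lipoprotein with which glia carry sterols, was at 94681, 103259, 84387 and 96922 CPM in satellite glia and 1174, 732, 649 and 867 CPM in neurons, but it also served as a satellite glia marker. Lrp1, a receptor for such particles, was higher in satellite glia than in neurons by 3.21 on the log2 scale (SE 0.14, edgeR adjusted p = 7.0e-08), and Soat1, which esterifies cholesterol, by 3.39 (SE 0.22, edgeR adjusted p = 6.7e-07). Fatty acid oxidation was higher in satellite glia than in neurons in 14 of 16 genes and lower in 1, against the same shares of all genes. Schwann cells were lower than satellite glia in 14 of these 16 and higher in 0, where 17.8% of all genes were lower and 11.5% higher.

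Of the other sterol synthesis and SREBP control genes, 5 of 9 were higher and 2 lower in satellite glia than in neurons, against 37.5% and 37.7% of all genes. Schwann cells were lower than satellite glia in 2 of these 9 and higher in 0, and the median log2 fold change was -0.02, against 0.03 for all genes. Further genes of fatty acid synthesis and elongation were higher in satellite glia than in neurons in 9 of 16 cases and lower in 3, against the same shares of all genes. In Schwann cells 4 of these 16 were higher and 10 lower than in satellite glia. Fads1 and Fads2, the desaturases of polyunsaturated fatty acids, were higher in satellite glia than in neurons. Their log2 fold changes in that comparison were 2.72 (SE 0.12) and 3.87 (SE 0.22, edgeR adjusted p = 6.8e-08 and 2.8e-07). Fa2h, which hydroxylates the fatty acids of myelin lipids, was at 281, 220, 190 and 222 CPM in Schwann cells and at no more than 4.31 CPM in satellite glia. Fatty acid activation and glycerolipid synthesis was mixed, with 3 of 10 genes higher and 5 lower in satellite glia than in neurons, near the 37.5% and 37.7% of all genes. Against satellite glia, Schwann cells were higher in 3 of the 10 and lower in 2.

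Between CCI and CON, 1 gene of the 5 lists passed the test in any of the 3 types, in neurons, a smaller share than the 4.61% of all genes called there. Abca1, which exports cholesterol from cells, was at 37.2 and 38.3 CPM in CON and 113 and 81.8 CPM in CCI neurons (log2 fold change 1.44, SE 0.20, edgeR adjusted p = 0.0044). The groups did not overlap. Vldlr, a lipoprotein receptor named here after its values were seen, was at 373 and 338 CPM in CON and 188 and 199 CPM in CCI satellite glia (log2 fold change -0.80, SE 0.20), without overlap, and did not pass the test (edgeR adjusted p = 0.999).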

How the data were processed

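Single-cell suspensions of DRGs were processed with the 10x Genomics 3.1 chemistry. The authors ran Cell Ranger against mm10 with Ensembl release 100 annotation and deposited UMI counts per gene and cell barcode, in whole numbers, with no further normalization. The labels describe digestion with collagenase II and name the cells as neurons, whereas the methods of the study describe another enzyme solution.

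A barcode entered the analysis if it had over 500 genes and a mitochondrial share below 20%. The 13 mitochondrial genes were dropped afterwards. Cells were integrated with Seurat 5.3.0 and sctransform 0.4.2 (2000 features, 10 principal components, resolution 0.8). The members and the other lipid lists were left out of the features. No doublet caller was run. Clusters were named from marker lists, and clusters with neuron markers at low UMI counts were kept apart. Sums of UMIs for each class and library were compared by edgeR 4.0.16 (TMM factors, filterByExpr, quasi-likelihood test) in R 4.3.3, with Benjamini-Hochberg adjustment over all genes and a threshold of 0.05. Intervals use the 95% t quantile of that fit. DESeq2 1.42.0, other factors and filters, and left-out libraries were alternatives. Per-library values were given for members called between CCI and CON, the 4 highest members of each type and a list fixed by role, and up to 4 genes of each further list by adjusted p. The members and lists were chosen with earlier results of these data known. Scripts were tested on simulated data. Positions came from the RefSeq gene table of GRCm38.p6, and the levels count molecules, not length.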

Additional observations from a re-analysis of the deposited data

How the results depend on the processing

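In neurons 1 member, Hsd17b7, was called between CCI and CON. For neurons the share of all genes called is given for this main setting only. No gain or loss among the members is therefore read from the counts below. DESeq2 and edgeR without a filter on low counts each called 2, Hsd17b7 and Elovl6, and leaving out 1 library at a time gave 1 to 2, the second being Elovl6 without CON replicate 2. Without the CIP-like neurons 0 were called. With the replicate block 4 were called, 3 higher (Hsd17b7, Fasn and Sqle, the last with adjusted p = 0.047) and 1 lower (Elovl6, adjusted p = 0.010). The labels share only a number between the groups, and no source ties the numbers to a litter or day. The correlation of the deviations of same-numbered libraries was 0.53 in satellite glia, 0.57 in Schwann cells and 0.26 in neurons, over 2 pairs.

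For the difference of the CCI effect between satellite glia and neurons, 0 members were called, against 1 (Hsd17b7) with DESeq2 and 0 to 1 with 1 library left out. With only the CON libraries, chosen after seeing the data, 3 members were called between Schwann cells and neurons and 7 between Schwann cells and satellite glia, from fewer samples. Leaving out 1 library gave 19 to 23 members between satellite glia and neurons, 16 to 23 between Schwann cells and neurons and 19 to 24 between Schwann cells and satellite glia. Without the library block 7 members were called between CIP-like and other neurons. In that comparison the log2 fold change of Msmo1 turned to 0.0012 with DESeq2, and that of Pmvk to -0.0049 without the filter and to -0.18 with library totals in place of TMM, also chosen after seeing the data. The cause was not tested. Depth limited Schwann cells most, with the smallest sum in CON replicate 2. Shares of all genes called are not given for the settings of this paragraph, so that its counts have no background beside them.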
